A study of Mus musculus with 6 samples.

Results

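The genes described here encode the collagens, the laminins, 4 small leucine-rich proteoglycans of fibrous tissue (Dcn, Lum, Bgn and Ogn) and fibronectin (Fn1), measured in the cortex of control and microglia-depleted mice. They were chosen by symbol and by level: of 60 genes with such symbols, 47 averaged 0.5 FPKM or more over all 6 mice and were kept, and 13 were below that mean. FPKM counts the fragments of a gene per length of transcript and depth of library, so that levels of different genes can be set side by side. The table held 23366 genes, 14385 of which reached the same mean. The 47 comprised 31 collagen genes, 11 laminin genes and the 5 others.

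RNA came from the brain cortex of 6 mice on the C57BL/6 background, 1 library per mouse. Mice A4, A5 and A6 were microglia-depleted, carried CX3CR1-CreERT2+/– and iDTR+/–, and were taken 10 days after depletion, while A1, A2 and A3 were littermate controls that carried CX3CR1-CreERT2+/– without iDTR. Cre is driven by the promoter of Cx3cr1, which is active in microglia and in other CX3CR1+ myeloid cells. After tamoxifen it allows the diphtheria toxin receptor to be made, so that toxin kills cells that carry the receptor. According to the paper, a wait before toxin lets peripheral monocytes be replaced by cells without the receptor. Outside the brain it found such cells reduced only in the small intestine. By 10 days after depletion the paper describes repopulated microglia, so these samples are not tissue without microglia. Tamoxifen was given to both genotypes according to the methods, which do not say for this experiment whether the controls also received toxin, so an effect of toxin and an effect of depletion cannot be told apart. The age of the mice is not given in the sources used here. Values of single mice are given in the order A1, A2, A3 for the controls and A4, A5, A6 for the depleted mice.

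Collagens are built from chains that wind around each other in a triple helix, which needs a glycine at regular steps along the chain. Fibrillar collagens form the fibres of the meninges and of vessel walls, type IV collagens form the sheet of the basement membrane, and laminins, each made of an alpha, a beta and a gamma chain, form the other network of that sheet. In the brain these proteins lie mainly in the meninges, around vessels and at the surface below the pia, and they are made by fibroblasts, endothelial cells, mural cells and astrocytes. Neurons make some collagens of their own, of which the transmembrane collagen Col25a1 is an example.

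The repeat that defines the collagens is visible in their coding sequence. Stretches of 54 bases from the helix region are shown for the 3 collagens with the smallest p-values (Col9a3, Col8a2 and Col24a1) and for a fibrillar chain of fibroblasts (Col1a2). The capitals mark the glycine codons, GGN, which recur every 3 codons, and each stretch is given from its first base in the 5′ to 3′ direction, as annotated on GRCm38.
Col9a3, chromosome 2, coding bases 529 to 582: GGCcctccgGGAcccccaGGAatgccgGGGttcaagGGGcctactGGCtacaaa
Col8a2, chromosome 4, coding bases 934 to 987: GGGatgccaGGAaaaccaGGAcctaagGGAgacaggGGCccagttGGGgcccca
Col24a1, chromosome 3, coding bases 1702 to 1755: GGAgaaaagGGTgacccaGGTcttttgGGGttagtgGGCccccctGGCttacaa
Col1a2, chromosome 6, coding bases 289 to 342: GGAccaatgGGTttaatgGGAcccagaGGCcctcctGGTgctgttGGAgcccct
All 31 collagens held a run of more than 5 such triplets, with a longest run of 23 to 344 triplets (median 66), whereas the longest run in the other 16 genes was 3. The share of coding exons that are exactly 54 bases long, the usual size in fibrillar collagen genes, was 33 of 60 in Col24a1, 24 of 52 in Col1a2, 14 of 32 in Col9a3 and 0 of 2 in Col8a2. Glycine codons begin with GG, and the collagens had a median GC content of 59.6% in their coding sequence, compared with 53.6% in the other members. A correction for GC content was therefore 1 of the alternatives, and its values are given beside several of the differences below.

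Col4a1 and Col4a2, the main chains of type IV collagen, lie head to head on chromosome 8 and are transcribed in opposite directions. Their RefSeq starts on GRCm38.p6 are 21 bases apart, Col4a1 at 11312826 on the minus strand and Col4a2 at 11312805 on the plus strand. By these starts the 5′ ends of the transcripts overlap, and the bases just before each start lie within the other gene. The windows from 250 bases before to 50 bases after each start are shown because the levels of both genes are compared as a ratio below, with the 78 bases that the windows share, as reverse complements, in capitals.
Col4a1, chr8:11312777-11313076, minus strand: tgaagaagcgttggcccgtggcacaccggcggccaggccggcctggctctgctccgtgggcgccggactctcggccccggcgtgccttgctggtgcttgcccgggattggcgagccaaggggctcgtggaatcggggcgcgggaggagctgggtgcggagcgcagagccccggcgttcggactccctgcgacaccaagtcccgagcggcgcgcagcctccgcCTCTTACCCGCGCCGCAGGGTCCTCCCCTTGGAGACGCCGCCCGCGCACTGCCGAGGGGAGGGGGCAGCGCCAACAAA
Col4a2, chr8:11312555-11312854, plus strand: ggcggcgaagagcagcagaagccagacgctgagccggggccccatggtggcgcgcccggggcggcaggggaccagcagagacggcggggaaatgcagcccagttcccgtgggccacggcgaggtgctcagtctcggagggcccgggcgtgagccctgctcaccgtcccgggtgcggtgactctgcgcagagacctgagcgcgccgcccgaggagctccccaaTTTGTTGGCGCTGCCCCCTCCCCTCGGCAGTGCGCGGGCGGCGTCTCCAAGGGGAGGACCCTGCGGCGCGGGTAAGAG
The GC content of these windows was 74.0% and 73.7%. Windows of the same length were found in RefSeq for 32 of the 47 members. The GC box GGGCGG, searched on both strands, was in 22 of the 32 (68.8%) and in 38.2% of the windows of all 27025 genes in that table. The CCAAT box was in 11 of 32 (34.4%, compared with 41.1% of all genes) and the TATA box TATAAA in 3 of 32 (9.38%, compared with 15.7%). These matches describe the letters in the windows and do not show binding.

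Some properties of the libraries touch every result. Spacing of low values put the fragments behind the controls at 14.6 to 20.4 M and behind the depleted mice at 10.7 to 13.8 M, with 21.4 M nearly as good a solution for A5. Mouse A4 held the highest or the lowest value of the 6 mice in 54.9% of all genes tested and in 25 of the 47 members. A6 did so in 38.6% of all genes and in 23 members, with the lowest value in 18. The labels give no sex, and the methods describe sex-matched mice, but the 4 Y-linked genes Uty, Kdm5d, Ddx3y and Eif2s3y together reached 5.56 FPKM in A4 against 0.16 FPKM or less elsewhere, and Xist was at 4.74 FPKM in A3 and at 30.9 to 46.7 FPKM in the rest. Bgn and Col4a5 are X-linked members. Cortical neuron markers were high in all mice, with 9 genes summing to 1650 to 1930 FPKM and Snap25, a synaptic protein, at 1031 to 1254 FPKM. Among the microglia markers, Fcrls was at 11.88, 8.19 and 13.30 FPKM in the controls and at 3.83, 5.05 and 7.91 FPKM in the depleted mice, and Cx3cr1 was between 3.94 and 4.91 FPKM in both groups. The 15 interferon response genes summed to 46.2, 31.8 and 36.2 FPKM in the controls and to 524, 98.8 and 103 FPKM in the depleted mice.

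To ask whether matrix genes differ 10 days after depletion, the groups were compared gene by gene. The summed level of the collagens was lower in every depleted mouse, but the groups overlapped after a correction for GC content and 11 of the 31 collagens were higher. The summed laminins differed by less than their spread, and Col9a3, Col8a2 and Col24a1 had the smallest p-values. None of the 47 genes passed an adjusted p-value of 0.1 in limma, where 4 of 14385 genes (0.0278%) did. At an unadjusted p-value under 0.05, 3 members were lower (Col9a3, Col8a2 and Col24a1) and 0 were higher, which is 6.38% of the members compared with 10.5% of all genes tested (5.74% lower and 4.79% higher). This count was 1 without A3 (6.15% of all genes), 5 without A5 (14.3%) and 6 without A6 (13.1%). The groups did not overlap in 6 members (12.8%), 5 lower and 1 higher, compared with 17.6% of all genes (9.38% lower and 8.21% higher). All these shares were near or below those of all genes.

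Members differed little in size. The log2 fold changes, on the log2(FPKM + 1) scale on which low genes are understated, ran from -0.54 (Col9a3) to 0.22 (Col23a1), with a median of -0.08 compared with -0.01 over all genes. In all, 30 of the 47 members (63.8%) and 52.0% of all genes were lower in the depleted mice. The 95% interval of the difference lay within 1 on this scale in 47 of 47 members and within 0.5 in 25, so moderate differences were not resolved. After a correction for GC content the median was -0.04, with 19 members higher.

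**Figure D1:**
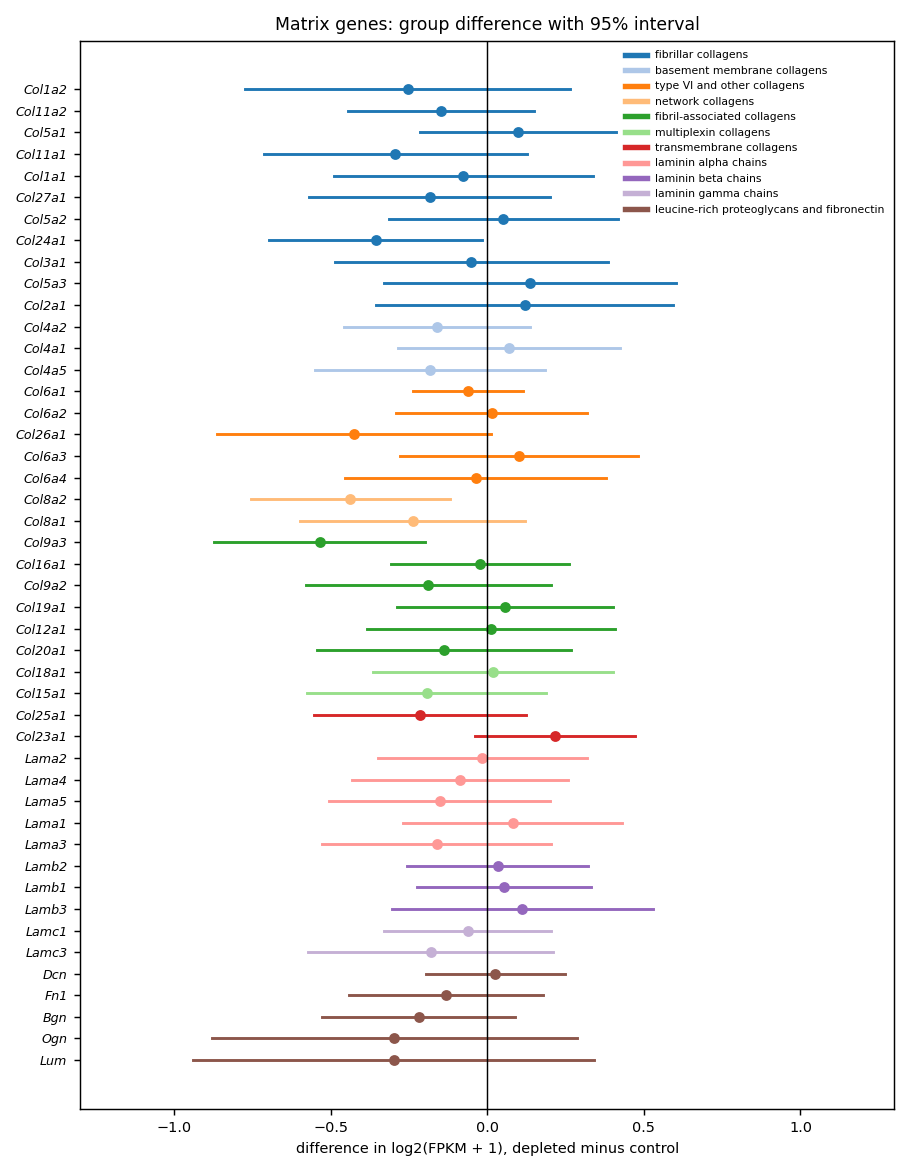
Difference between the groups for all but 1 of the 47 genes, ordered by protein role and coloured by it, on the log2(FPKM + 1) scale as depleted minus control; points are limma estimates from 3 mice per group and lines their 95% intervals. Most intervals cross 0, those of Col9a3, Col8a2 and Col24a1 lie below it, and points run from -0.54 to 0.22.

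Summed over the 31 collagens, expression was 119.83, 113.07 and 111.76 FPKM in the controls and 104.01, 104.92 and 104.70 FPKM in the depleted mice. Every depleted mouse was below every control, and the mean was 9.0% lower (115 ± 4.33 and 105 ± 0.475 FPKM, SD, n = 3 each). An exact two-sided permutation test gave p = 0.1, the smallest value that 3 mice against 3 allow. After the GC correction the difference went from -10.3 to -4.31 FPKM and the groups overlapped (exact permutation p = 0.4). Col9a3 alone gave -2.58 FPKM of the difference, followed by Col25a1 with -1.22, Col26a1 with -1.16 and Col4a2 with -1.09 FPKM, and Col23a1 with 0.74 FPKM in the other direction. Without Col9a3 the groups still did not overlap. Without Col9a3, Col25a1 and Col26a1, the collagens with the largest falls, they did, but only through A4 at 92.94 and A3 at 92.91 FPKM. These genes were chosen with the values known, so a smaller gap was bound to follow.

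The 11 laminins summed to 21.38, 20.43 and 21.79 FPKM in the controls and to 21.24, 21.79 and 21.41 FPKM in the depleted mice. These sums overlapped and differed by 1.32% (exact permutation p = 0.7). Of the role groups, 2 had sums that did not overlap: the network collagens and the fibril-associated collagens, described below. For scale, the groups did not overlap in 17.6% of all single genes tested. In bulk tissue, fewer cells of a type and less RNA per cell cannot be told apart.

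**Figure D2:**
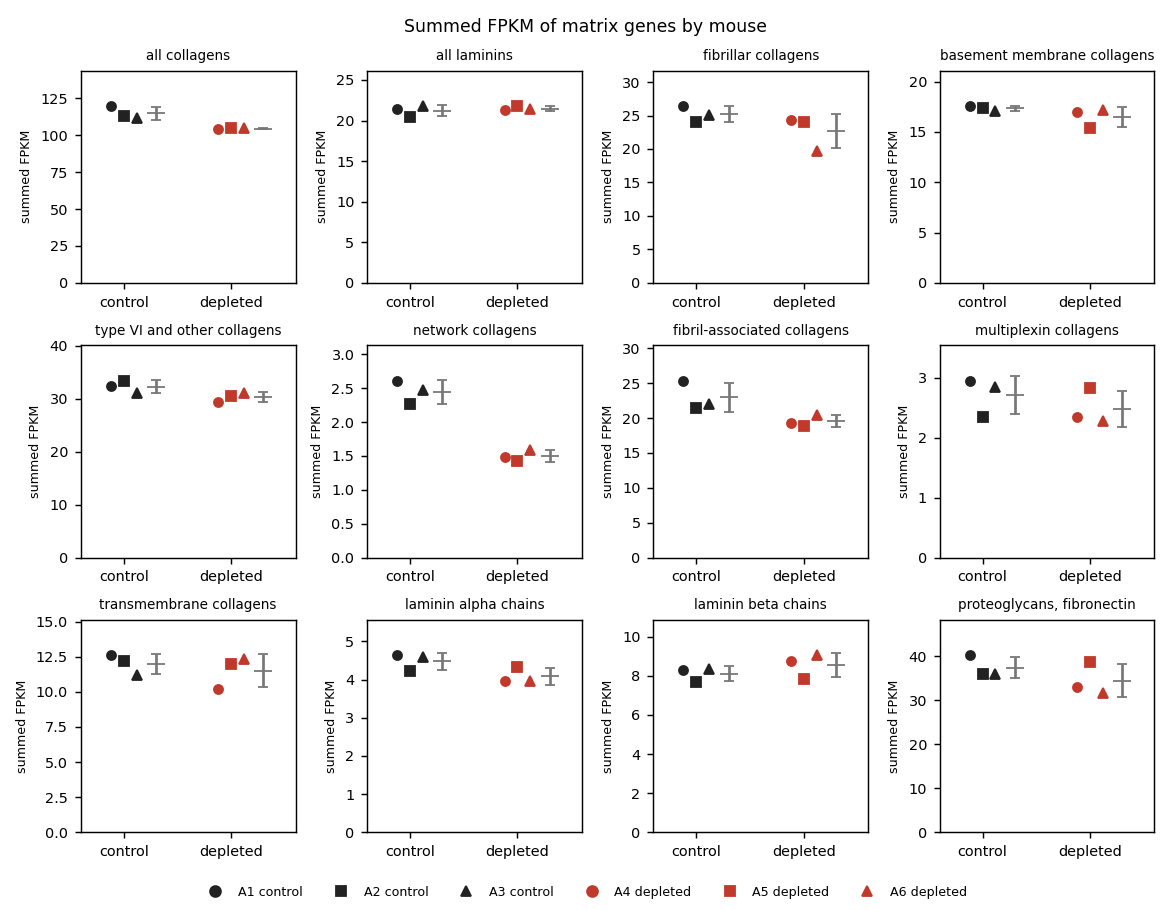
Summed FPKM by mouse for all collagens, all laminins and 10 role groups, with controls in black and depleted mice in red; grey marks show the mean and SD of 3 mice. The sums of all collagens, network collagens and fibril-associated collagens are lower in every depleted mouse, and those of the laminins are not.

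The fibril-associated collagens sit on the surface of fibrils and do not form fibrils themselves. Col9a3, the alpha 3 chain of type IX collagen, had the largest difference of all members on the log2(FPKM + 1) scale. With a pseudocount of 0.1 its log2 fold change was -0.62, smaller in size than those of Col8a2 (-0.78) and Col24a1 (-0.67). It was at 8.45, 6.36 and 7.26 FPKM in the controls and at 3.85, 5.10 and 5.38 FPKM in the depleted mice. All 3 depleted mice lay below the controls, at a log2 fold change of -0.54 (standard error 0.15, unadjusted p = 0.006, adjusted p = 0.370 in limma). The value was -0.41 without A4 and -0.44 after GC correction. Its partner Col9a2, at 4.61 ± 1.21 FPKM in control and 3.85 ± 0.249 FPKM in depleted mice (SD, n = 3), overlapped between the groups, and Col9a1 was below the level filter. The ratio of Col9a2 to Col9a3 was 0.67, 0.52 and 0.67 in the controls and 1.04, 0.70 and 0.74 in the depleted mice, without overlap (exact permutation p = 0.1). Since Col9a3 was the member with the smallest p-value, this ratio reuses its lower values and is no separate evidence. All other ratios of partner or related chains that were computed overlapped between the groups. Col16a1 was the second most abundant member of the group, at 5.88, 6.25 and 5.58 FPKM and then 6.35, 4.88 and 6.24 FPKM with overlap, and its log2 fold change of -0.02 turned to 0.11 after GC correction. The other 3 tested members, Col19a1, Col12a1 and Col20a1, had log2 fold changes between -0.14 and 0.06. The group sum was 25.35, 21.49 and 22.06 FPKM in the controls and 19.36, 18.86 and 20.45 FPKM in the depleted mice (exact permutation p = 0.1). Its mean went from 23.0 to 19.6 FPKM, and Col9a3 gave -2.58 FPKM of that difference. No other tested member of the group was without overlap.

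The network collagens are short chains that form hexagonal lattices, as in the basement membrane of the corneal endothelium. Col8a2 had 1.33, 1.39 and 1.54 FPKM in the controls and 0.83, 0.77 and 0.76 FPKM in the depleted mice. The spread within each group was small beside the gap, and the log2 fold change was -0.44 (standard error 0.14, unadjusted p = 0.013, adjusted p = 0.387 in limma). It stayed between -0.46 and -0.40 with any 1 mouse left out, and was -0.34 after GC correction. Its partner chain Col8a1 was at 1.28, 0.87 and 0.93 FPKM in the controls and 0.65, 0.66 and 0.83 FPKM in the depleted mice. These values did not overlap either, but A6 came close to A2, and the log2 fold change of -0.24 had an unadjusted p of 0.166 in limma. Together the pair summed to 2.61, 2.26 and 2.47 FPKM in the controls and 1.48, 1.43 and 1.59 FPKM in the depleted mice, 38.7% lower (exact permutation p = 0.1). Col10a1, the network collagen of growth-plate cartilage, was below the filter.

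**Figure D3:**
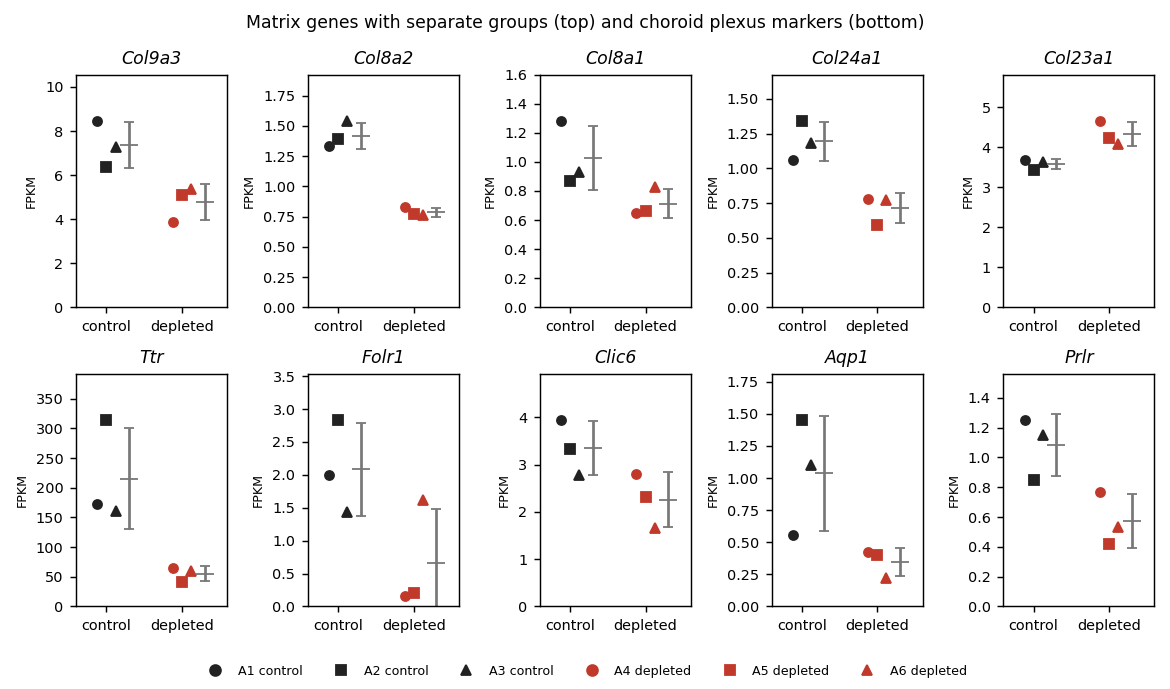
FPKM by mouse of 5 collagens whose groups do not overlap (top) and of the 5 choroid plexus markers with an unadjusted p-value under 0.05 (bottom); controls are black, depleted mice red, and grey marks show mean and SD of 3 mice. Col9a3, Col8a2, Col8a1 and Col24a1 are lower and Col23a1 higher in every depleted mouse, and Ttr is at most 64.3 FPKM in the depleted mice.

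Markers of the choroid plexus, a secretory epithelium of the ventricles that is not part of cortex, were also lower in the depleted mice. Their sum was 187, 328 and 172 FPKM in the controls and 73.5, 47.8 and 67.2 FPKM in the depleted mice, with 9 of 12 genes tested, 0 of them higher and 5 lower at an unadjusted p-value under 0.05. Ttr, the thyroid hormone carrier of this epithelium, made up most of it, at 172.74, 313.68 and 160.05 FPKM and then 64.30, 40.92 and 59.89 FPKM. Folr1, a folate receptor, was at 1.99, 2.83 and 1.43 FPKM in the controls and 0.16, 0.21 and 1.61 FPKM in the depleted mice. No gene of the list passed the adjusted threshold. The part of choroid plexus tissue in the difference of Col9a3, Col8a1 and Col8a2 was not tested.

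Fibrillar collagens were represented by all 11 genes, and 7 of them were lower in the depleted mice, with a median log2 fold change of -0.08. Col24a1, a minor fibrillar chain, was at 1.06, 1.34 and 1.18 FPKM in the controls and at 0.78, 0.59 and 0.77 FPKM in the depleted mice. The groups did not overlap and the log2 fold change was -0.36 (standard error 0.15, unadjusted p = 0.042, adjusted p = 0.460 in limma), with -0.37 after GC correction. At these levels about 45.1 fragments stood behind the value of A5 if its library held 10.7 M fragments, and more if it held 21.4 M.

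Col1a2, the alpha 2 chain of type I collagen and the most abundant fibrillar member, was at 6.43, 5.22 and 5.83 FPKM in the controls and at 5.56, 6.35 and 2.86 FPKM in the depleted mice. The low mean of the depleted group came from A6, and the log2 fold change of -0.25 became 0.03 without it. Its partner Col1a1 was at 2.78, 2.5 and 1.95 FPKM in the controls and 2.90, 2.26 and 1.62 FPKM in the depleted mice, and Col3a1, the chain of reticular fibres, was at 1.11, 0.69 and 1.01 FPKM and at 1.26, 0.85 and 0.54 FPKM. Both overlapped, and in both A6 was the lowest and A4 the highest mouse. Col5a1, a chain of the type V collagen that starts fibrils, was at 3.06 ± 0.502 FPKM in control and 3.33 ± 0.296 FPKM in depleted mice (SD, n = 3), a difference within the spread. Col11a2, a type XI chain and the second most abundant fibrillar member, was at 5.15, 4.36 and 4.48 FPKM and then 3.48, 4.53 and 4.36 FPKM with overlap, and its log2 fold change of -0.15 was 0.0007 after GC correction. Its partner Col11a1 was at 3.47, 3.04 and 4.29 FPKM in the controls and at 1.96, 2.88 and 3.52 FPKM in the depleted mice, overlapping.

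The small leucine-rich proteoglycans bind collagen fibrils and set their width, and with Col1a2 they are typical products of fibroblasts. Dcn, the second most abundant member, was at 16.28, 15.10 and 15.64 FPKM in the controls and at 17.58, 14.31 and 16.17 FPKM in the depleted mice. Its log2 fold change was 0.03 (95% interval -0.20 to 0.25). Ogn was at 7.35, 6.5 and 4.75 FPKM and then 4.11, 7.69 and 3.38 FPKM. Lum was at 2.70, 1.24 and 2.11 FPKM in the controls and 1.15, 2.56 and 0.81 FPKM in the depleted mice, and Bgn at 6.25, 6.44 and 6.28 and then 4.98, 6.54 and 4.52 FPKM. In Ogn and Lum as in Bgn, A4 and A6 were below every control while A5 was among or above them, so the groups overlapped. With all mice the unadjusted p-values of Ogn, Lum and Bgn were 0.276, 0.316 and 0.140 in limma. Without A5 these 3 genes were lower at an unadjusted p-value under 0.05, as were 14.3% of all genes in either direction. Since A5 was the depleted mouse not below the controls, that result follows from the values above and is no separate evidence. Ogn, Lum, Bgn and Col1a2 together summed to 22.73, 19.40 and 18.97 FPKM in the controls and 15.80, 23.14 and 11.57 FPKM in the depleted mice, a set chosen with the values known (exact permutation p = 0.5). Fn1, the fibronectin gene, was at 7.57, 6.77 and 7.15 FPKM and then 5.24, 7.61 and 6.68 FPKM, with A4 lowest.

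Meningeal fibroblast markers were compared in the same way. Of 27 genes, 25 were tested, and the median of their log2 fold changes was -0.12, with 8 genes higher. At an unadjusted p-value under 0.05, 3 were lower and 1 higher, where 10.5% of all genes tested were called, and none passed the adjusted threshold. The groups did not overlap in 4 of the 25, compared with 17.6% of all genes tested. The 25 summed to 231, 223 and 235 FPKM in the controls and to 215, 225 and 205 FPKM in the depleted mice, overlapping. Igf2, a growth factor of meninges, vessels and choroid plexus, was at 23.48, 23.30 and 24.23 FPKM in the controls and at 14.58, 17.88 and 11.88 FPKM in the depleted mice (log2 fold change -0.66, adjusted p = 0.293 in limma). Without A5, the depleted mouse with the highest Igf2, its adjusted p-value was under 0.1. Leaving out A5 also raised the count over all genes from 4 to 29. Prelp, another leucine-rich proteoglycan, was at 6.81, 6.07 and 5.73 FPKM and then 3.40, 4.57 and 3.91 FPKM, and Igfbp2 also did not overlap between the groups. In contrast, Slc6a13, a GABA transporter of meningeal fibroblasts, was at 6.04, 4.60 and 4.91 FPKM and then 5.53, 5.32 and 4.41 FPKM, and Omd, the most abundant gene of the list, ran from 41.1 to 70.0 FPKM with overlap. Nupr1 was the highest of the list by fold change (0.32) and was higher in every depleted mouse. It was at 9.61, 10.03 and 8.98 FPKM in the controls and at 12.43, 14.27 and 10.18 FPKM in the depleted mice. The part of meningeal tissue in the sample in these values was not tested.

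**Figure D4:**
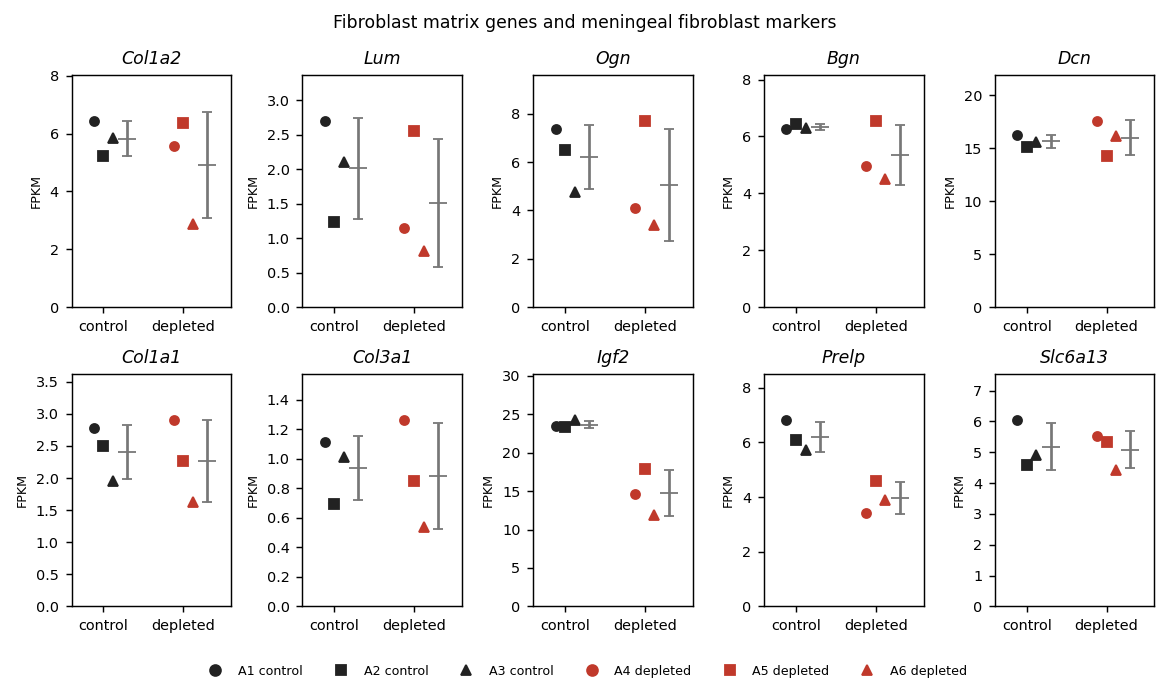
FPKM by mouse of 7 matrix genes of fibroblasts and of the meningeal fibroblast markers Igf2, Prelp and Slc6a13; controls are black, depleted mice red, and grey marks show mean and SD of 3 mice. Lum, Ogn and Bgn are low in A4 and A6 and not in A5, Dcn stays between 14.3 and 17.6 FPKM, and Igf2 and Prelp are lower in every depleted mouse.

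The basement membrane collagens overlapped between the groups. Their sum was 17.58, 17.35 and 17.13 FPKM in the controls and 16.94, 15.37 and 17.20 FPKM in the depleted mice. Col4a1 was at 6.64, 6.26 and 5.81 FPKM in the controls and at 8.60, 5.78 and 5.70 FPKM in the depleted mice. Col4a2 was at 10.04, 10.43 and 10.35 FPKM and then 7.56, 9.03 and 10.97 FPKM. These partners moved in opposite directions in A4, which had the highest Col4a1 and the lowest Col4a2. The ratio of Col4a1 to Col4a2 was 0.66, 0.60 and 0.56 in the controls, 1.14 in A4, and 0.64 and 0.52 in A5 and A6. Thus A4 lay well above the other 5 mice, which ran from 0.52 to 0.66, and the groups overlapped (exact permutation p = 0.8). The log2 fold change of Col4a1, 0.07, was -0.10 without A4 and 0.14 after GC correction. Col4a5, the X-linked chain, was low in both groups, at 0.843 ± 0.163 and 0.623 ± 0.137 FPKM (SD, n = 3), and Col4a3, Col4a4 and Col4a6 were below the filter.

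**Figure D5:**
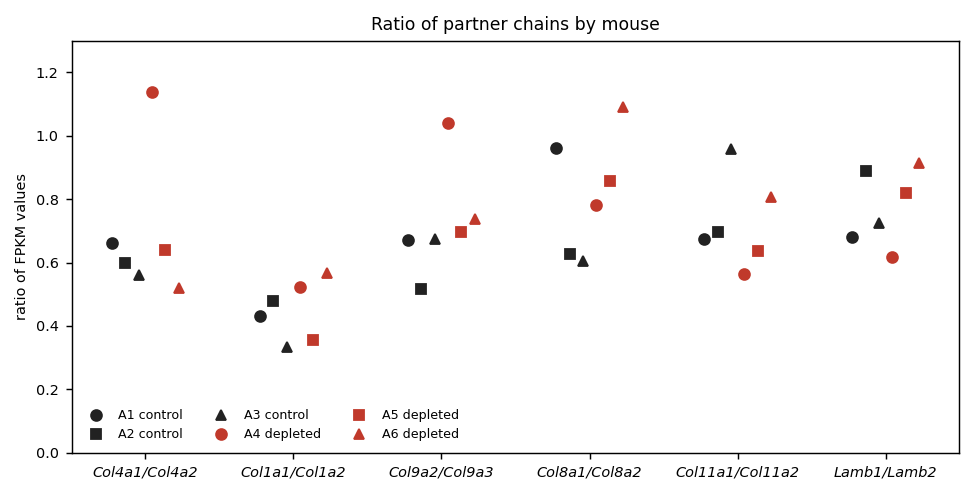
Ratio of the FPKM values of 6 pairs of partner or related chains in each mouse, with controls in black and depleted mice in red. The Col4a1/Col4a2 ratio of A4 is 1.14 against 0.52 to 0.66 in the other mice, and Col9a2/Col9a3 is higher in every depleted mouse.

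Type VI collagen, which forms beaded filaments around cells, held the most abundant of the collagen chains. Col6a1 was at 20.37, 21.52 and 20.53 FPKM in the controls and at 19.69, 20.57 and 19.46 FPKM in the depleted mice, the highest mean of all members. The log2 fold change was -0.06, with a 95% interval from -0.24 to 0.11. Col6a2 was at 7.40, 6.44 and 5.37 FPKM and then 6.92, 5.76 and 6.65 FPKM, so that Col6a1 was 2.75 to 3.82 times as high as its partner chain in all mice. Col6a3 and Col6a4 were under 1 FPKM on average. Col26a1, a little-studied collagen, was at 3.20, 4.07 and 4.02 FPKM in the controls and 1.68, 2.79 and 3.34 FPKM in the depleted mice. Its groups overlapped only through A6 and A1, and its log2 fold change of -0.43 had an unadjusted p of 0.055 in limma and became -0.23 without A4 and -0.31 after GC correction.

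The transmembrane collagens are anchored in the cell membrane and shed their ectodomain. Col23a1 was the member with the highest fold change on the log2(FPKM + 1) scale. It was at 3.67, 3.44 and 3.63 FPKM in the controls and 4.65, 4.24 and 4.08 FPKM in the depleted mice. All depleted mice were above the controls, and the log2 fold change was 0.22 (standard error 0.11, unadjusted p = 0.088, adjusted p = 0.532 in limma). Col25a1, which neurons make, was at 8.92, 8.74 and 7.57 FPKM and then 5.54, 7.76 and 8.26 FPKM. The group means of Col25a1 differed mainly through A4, and its log2 fold change of -0.21 became -0.06 without that mouse. The multiplexins Col18a1, the source of endostatin, and Col15a1 are basement membrane collagens with an interrupted helix. Col18a1 was at 1.76, 1.23 and 1.42 FPKM and then 1.70, 1.73 and 1.10 FPKM. Col15a1 was at 1.19, 1.12 and 1.42 FPKM and then 0.64, 1.10 and 1.18 FPKM, lowest in A4, and both genes overlapped between the groups.

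The sums of the laminin alpha, beta and gamma chains each overlapped between the groups. Among the alpha chains, Lama2 of vascular and pial basement membranes was at 1.47, 1.27 and 1.29 FPKM and then 1.08, 1.52 and 1.37 FPKM, and the endothelial chain Lama4 at 1.06, 1.05 and 1.16 FPKM and then 1.01, 1.15 and 0.76 FPKM. Both overlapped between the groups. Lama5 was the laminin whose groups did not overlap, at 0.88, 0.82 and 0.85 FPKM in the controls and at 0.80, 0.49 and 0.72 FPKM in the depleted mice. A2 and A4 nearly touched, and the log2 fold change of -0.15 had an unadjusted p of 0.352 in limma and went to -0.04 after GC correction. Of the beta chains, Lamb2 was at 4.68, 3.83 and 4.53 FPKM and then 5.06, 4.12 and 4.25 FPKM, and Lamb1 at 3.19, 3.40 and 3.29 FPKM and then 3.13, 3.38 and 3.89 FPKM. The beta chains also overlapped, with mean differences of 0.13 FPKM for Lamb2 and 0.17 FPKM for Lamb1. Lamc1, the gamma chain of most laminins, was at 3.71, 3.76 and 4.15 FPKM and then 3.70, 3.95 and 3.36 FPKM. This gene overlapped as well. In the laminins 6 of 11 were lower and the median log2 fold change was -0.02.

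Levels across the 47 genes differed far more than the groups did. On average 2 members, Col6a1 and Dcn, were over 10 FPKM, 10 members were between 5 and 10 FPKM, 21 from 1 to 5 FPKM and 14 under 1 FPKM. The members nearest above the filter were Lamb3, with 0.43, 0.43, 0.55, 0.57, 0.34 and 0.90 FPKM in A1 to A6, and Col2a1, with 0.44, 0.47, 0.47, 1.09, 0.49 and 0.28 FPKM. Just below it were Col13a1, with 0.47, 0.45, 0.69, 0.22, 0.67 and 0.27 FPKM, and Col7a1, with 0.42, 0.49, 0.47, 0.78, 0.18 and 0.41 FPKM. In A5, at the estimate of 10.7 M fragments, the fragments behind a member ran from 17.7 to 902, with a median of 143. The median was 250 in A2. At 21.4 M, nearly as good a solution for A5, its counts would be higher. In either case members under 1 FPKM are the least precise.

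The genes that make, bind and cut these proteins were examined in lists, and no gene of them passed the adjusted threshold. Of the 22 collagen processing genes tested, 9 were higher and the median log2 fold change was -0.09. Serpinh1, the collagen chaperone of the endoplasmic reticulum, was at 8.09, 7.65 and 8.62 FPKM in the controls and 5.27, 7.97 and 4.58 FPKM in the depleted mice (log2 fold change -0.42, unadjusted p = 0.039 in limma). A5 lay among the controls, and A4 and A6 were below them. The prolyl hydroxylases P4ha1 and P4ha2 overlapped, and Ppib, a cyclophilin that folds collagen, ran from 98.2 to 121 FPKM. Among 17 other matrix proteins (median -0.04), Sparc, which binds collagen, was the most abundant, at 220.14, 159.85 and 222.87 FPKM and then 293.01, 213.05 and 229.58 FPKM. Vtn, the vitronectin made by mural cells, was at 34.44, 28.62 and 28.85 FPKM in the controls and 21.22, 26.87 and 22.32 FPKM in the depleted mice, lower in every depleted mouse (log2 fold change -0.37, unadjusted p = 0.011, adjusted p = 0.378 in limma). The basement membrane linkers Nid1 and Hspg2 were under 2 FPKM and overlapped.

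Of 20 receptors for matrix, 7 were higher, with a median of -0.05. Ddr1, a receptor kinase for collagen, was at 18.54, 16.22 and 18.95 FPKM in the controls and at 15.30, 14.85 and 14.83 FPKM in the depleted mice, and Itga7, a laminin-binding integrin chain, at 3.8, 3.81 and 4.12 and then 2.96, 2.99 and 3.13 FPKM. Both were lower in every depleted mouse, at unadjusted p-values of 0.028 and 0.033 in limma, and Itga7 was chosen after its values were seen. Itga9 was higher in every depleted mouse, at 1.19, 1.09 and 1.29 FPKM and then 1.32, 1.89 and 1.77 FPKM (unadjusted p = 0.101 in limma). In all, the groups did not overlap in 3 of the 20 receptors, compared with 17.6% of all genes tested. Dag1, the dystroglycan that anchors laminin, overlapped at 16.7 to 18.8 FPKM. Among 17 proteases and inhibitors (median -0.03), Timp2 was higher, at 104.68, 103.01 and 108.03 FPKM and then 142.17, 114.43 and 115.92 FPKM. Adamts4 was lower, at 4.55, 4.85 and 4.22 FPKM and then 3.08, 3.12 and 3.74 FPKM. Neither gene overlapped between the groups, and the limma fit across all genes gave unadjusted p-values of 0.036 and 0.016. Timp1 had the highest log2 fold change of the list (1.00, and 0.54 without A4), at 0.15, 0.38 and 1.77 FPKM and then 5.20, 0.63 and 2.5 FPKM, with overlap. None of the 16 genes of the TGF-beta pathway, which drives matrix production in many tissues, had an unadjusted p-value under 0.05 (median 0.02), and their sums lay between 84.0 and 88.0 FPKM in all mice.

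Markers of the cells that make this matrix were measured in the same libraries. The 14 endothelial genes summed to 87.7, 96.6 and 97.2 FPKM in the controls and 104.5, 100.6 and 98.5 FPKM in the depleted mice, slightly higher without overlap (exact permutation p = 0.1). Slc2a1 and Ly6c1 were the most abundant of them. In this list 11 genes were higher, with a median log2 fold change of 0.07. Cldn5, a tight junction protein, was at 6.45, 6.81 and 6.77 and then 9.0, 7.69 and 9.0 FPKM. It was the only 1 with an unadjusted p-value under 0.05 in limma. The 12 mural cell genes summed to 61.1, 52.1 and 50.7 FPKM and then 42.5, 48.5 and 44.3 FPKM, lower without overlap (exact permutation p = 0.1), with a median log2 fold change of -0.10 and 3 genes higher. Without Vtn, an alternative chosen after seeing the data, the other 11 genes summed to 26.7, 23.5 and 21.9 FPKM and then 21.3, 21.7 and 22.0 FPKM, with overlap. Of 8 astrocyte genes, 1 was higher in the depleted mice, Gfap, at 88.28, 64.48 and 84.21 FPKM and then 300.31, 108.51 and 120.13 FPKM, and the median was -0.17. Of 10 microglia genes 7 were higher (median 0.17), and of 9 cortical neuron genes 3 were (median -0.05). How far these cell types contribute to the matrix values was not tested.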

How the data were processed

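Cortical RNA of 3 control and 3 depleted mice was compared, with groups taken from the labels. The authors made poly(A) libraries, sequenced 75 bp paired ends, and deposited TMM-normalized FPKM values per gene, rounded to 2 decimals. TopHat, RSEM and DESeq, and mm9, are named in the submitters' processing notes. Tool versions and annotation are not given in the sources used here. Raw counts were not used here.

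Genes that averaged 0.5 FPKM or more were tested as log2(FPKM + 1), a pseudocount of 1, with limma 3.58.1 in R 4.3.3 (trended variance, Benjamini-Hochberg adjustment, threshold 0.1). The p-values measure the spread between these mice. Sums and ratios were compared by exact two-sided permutation tests of the difference in means. Symbols were matched to GENCODE M21 (GRCm38) for GC content and length, which 99.1% of tested genes had, and no coordinates of the deposited files were involved. Depth was estimated from the spacing of low values. The fit was tested on simulated data.

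The members and all lists were chosen with earlier results of these data known. Genes named in every mouse were members with unadjusted p under 0.05 or with separate groups, abundant members of each role and those nearest the filter. From each list the genes with the extreme fold changes, the most abundant and the first were candidates. Col1a1, Col3a1, Col11a1, Col26a1, Ogn, Lum, Bgn, Prelp, Itga7, Aqp1, Prlr, Cx3cr1, Aif1, C1qa, Ccl5 and the sex-linked genes were added with their values known. The values of 1 member are not reported here. The alternatives used a pseudocount of 0.1, other filters, TPM, median-of-ratios and quantile scaling, other variance settings, array weights, GC and length corrections, a threshold of 0.05 and each mouse left out.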

Additional observations from a re-analysis of the deposited data

How the results depend on the processing

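No member passed the adjusted threshold in any setting. The count of all genes was 4 with the settings used, 2 in eBayes without trend, 20 with array weights and from 2 (without A1) to 29 (without A5) with a mouse left out, with 8 without A6. Context genes past the threshold were 0, but 2 with array weights (Ccl5 and Ttr) and 4 without A5 (Igf2, Aif1, Ccl5 and C1qa). Members at an unadjusted p under 0.05 were 3, and from 1 (without A3) to 6 (without A6). The median of the members, -0.0762, moved to -0.125 with a pseudocount of 0.1 and -0.0418 with the GC correction, and lay between -0.104 (without A5) and -0.0325 (without A6) with a mouse left out. The cause of these shifts was not tested. The sum of all members, -13.0 FPKM, kept its direction (-9.05 to -15.5), with an exact permutation p of 0.2 after rescaling to TPM or without A1.

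The alternatives for the collagen sum were chosen after seeing the data: -4.31 FPKM with the GC correction, -6.82 without Col9a3, Col8a1 and Col8a2, and -5.38 without Col9a3, Col25a1 and Col26a1. Of 429 values for 24 named genes under alternatives, 25 had the opposite sign, in 10 genes. With array weights these were Col4a1 -0.0288, Col6a2 -0.0474, Col18a1 -0.0227, Lama2 0.0147, Lamb2 -0.0257 and Dcn -0.0261. The GC correction gave Col11a2 0.0007 and Col16a1 0.11, and the length correction gave Lama2 0.0042. With a mouse left out the ranges were -0.0768 to 0.0616 for Lama2, -0.0803 to 0.0807 for Col16a1, -0.0524 to 0.142 for Col18a1, -0.0408 to 0.0808 for Lamb2, -0.0902 to 0.109 for Col6a2, -0.101 to 0.158 for Col4a1, -0.0398 to 0.0999 for Dcn, -0.436 to 0.0283 for Col1a2 and -0.0133 to 0.109 for Lamb1.

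No paired analysis was possible because the labels number the mice 1 to 6 across both groups, so no number is shared. With 3 mice per group and an estimated 10.7 M to 20.4 M fragments, the median half-width of the 95% interval of a member was about 0.35. That width is on the log2(FPKM + 1) scale, where low genes are understated, and is not adjusted for the number of genes tested. Differences under it could not be resolved. Larger ones did not pass the adjusted threshold either, such as Col9a3 at -0.54 and Col8a2 at -0.44 (adjusted p = 0.370 and 0.387 in limma).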
